A study of Mus musculus with 4 samples.

Results

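The miR-15/16 family was measured as 5 mature microRNAs (miRNAs) in mouse lung: mmu-miR-15a, mmu-miR-15b, mmu-miR-16, mmu-miR-195 and mmu-miR-497 (written below without the species prefix). They were chosen by name, as the 5 assays annotated with those miRBase names among 750 miRNA assays, and all 5 were detected in every library. The libraries came from right lungs of adult mice (2 months old) in 95% oxygen, adult mice in room air, newborn mice in 95% oxygen and newborn mice in room air, with 72 h of exposure throughout. The newborns entered exposure at under 12 h of age and were 3 days old at collection. Each of the 4 groups had 1 library. The labels name no strain, genotype or sex and give no number of animals behind a library. The pulmonary artery was flushed before the lung was taken, and nursing dams were moved between both atmospheres each day so that they were not injured.

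miRNAs of this family pair through a shared seed, the stretch near the 5′ end that selects target mRNAs. Their known targets include cyclins, cyclin-dependent kinases and other drivers of cell division, which is why the family is described as a brake on the cell cycle. In mouse heart miR-195 is known to rise after birth, when cardiomyocytes stop dividing. The family is encoded as pairs of hairpins at separate loci, and the mature miR-16 sequence is made from more than one of them.

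The mature sequences are shown because the members share their seed and differ outside it. They are from RefSeq (GRCm38.p6), 5′ to 3′, with the seed, bases 2 to 8, in capitals.
miR-195: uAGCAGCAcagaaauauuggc
miR-497: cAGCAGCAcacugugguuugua
miR-15a: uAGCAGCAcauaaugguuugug
miR-15b: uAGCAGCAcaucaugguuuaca
miR-16: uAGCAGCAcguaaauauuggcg
All 5 of 5 members carry the same seed, which 10 of 1679 mouse mature miRNA names in the RefSeq table hold. Of those 10 names, 6 are on the cards, namely the members and miR-322. The members closest to each other in sequence do not come from one locus. miR-195 and miR-16 have equal bases at 19 of 21 positions, and miR-15b and miR-15a at 18 of 22. miR-195 and miR-497, which lie side by side, are equal at 12 of 21. Whether an assay also reads its nearest relative was not tested.

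The 3 loci lie on different chromosomes (RefSeq, GRCm38.p6). Mir497 and Mir195a span chr11:70234717-70235135 on the plus strand, with 241 bases between the hairpins, and no RefSeq gene in the table spans both. Mir15b and Mir16-2 span chr3:69009772-69009996 on the plus strand with 66 bases between them, inside the span of Smc4, which encodes a condensin subunit that works in mitosis. Mir16-1 and Mir15a span chr14:61631880-61632110 on the minus strand with 54 bases between them, inside the span of the long non-coding RNA gene Dleu2. The single miR-16 assay reads the product of both Mir16-1 and Mir16-2, so its value cannot be assigned to a locus.

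Levels below are log2 values against the small nucleolar RNA snoRNA202 of the same card: the threshold cycle (Ct) of snoRNA202 minus that of the miRNA, so a higher value means more RNA. Assays differ in efficiency, so levels of one miRNA are compared between libraries and not with levels of another. Depth in reads does not exist for this assay. The members crossed threshold at Ct 12.3 to 21.8, well before the detection limit of 35, and 468 to 507 of the 750 assays were detected per library. The 4 control RNAs read on both cards gave a technical SD, without any variation between animals, for each difference of libraries. It was 0.26 log2 for hyperoxia minus room air in neonates and 0.33 in adults, and for adult minus neonatal lung it was 0.95 in hyperoxia and 0.65 in room air. In adult room air, the Ct values of row L of the first card followed the mean of the other libraries poorly, at r = 0.302 across wells. No member lies in that row, and the rows that hold members had r of 0.769 or more in every library.

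With age, members of the family moved apart. miR-195 and miR-497, from one locus, were higher in adult lung, and miR-15b and miR-16 were lower, relative to snoRNA202, while miR-15a lay near miR-195. In an additive limma model with terms for age and oxygen, fitted to the 426 assays detected throughout, miR-497 rose with age by 1.57 ± 0.33 log2 (SE; Benjamini-Hochberg adjusted p = 0.0452) and miR-15b fell by 1.59 ± 0.30 (limma, adjusted p = 0.0397). Thus 1 of 5 members rose and 1 of 5 fell, where over all assays 5.63% rose and 30% fell. The median over the members was 0.32 log2, against -0.84 over all 426 assays. With 1 residual degree of freedom for each assay, the model takes the agreement of both oxygen conditions as its spread.

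miR-497 had levels of -6.19 in adult hyperoxia and -5.96 in adult room air, against -7.52 in neonatal hyperoxia and -7.78 in neonatal room air. Both adult libraries were above both neonatal ones. The adult was higher by 1.33 log2 in hyperoxia (2.51-fold at perfect amplification) and by 1.82 in room air (3.53-fold), both more than the technical SD. The fitted rise had a 95% interval of 0.57 to 2.58. Of the 426 fitted assays, 30 lay above it.

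miR-195 had levels of -2.30 in adult hyperoxia and -1.88 in adult room air, against -3.02 in neonatal hyperoxia and -2.63 in neonatal room air. Again both adult libraries were the higher ones. The adult-minus-neonatal difference was nearly equal in both atmospheres, at 0.72 log2 in hyperoxia, below the technical SD of 0.95, and 0.75 in room air, just above the SD of 0.65. The fitted 0.73 ± 0.30 log2 missed the threshold (limma, adjusted p = 0.145), with a 95% interval of -0.18 to 1.65.

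miR-15a had levels of -7.45 in adult hyperoxia and -7.16 in adult room air, against -7.69 in neonatal hyperoxia and -7.56 in neonatal room air. The adult libraries were above the neonatal ones by 0.25 log2 in hyperoxia and 0.40 in room air, both less than the technical SD of those differences. The fitted value was 0.32 ± 0.30 (limma, adjusted p = 0.444; 95% interval -0.60 to 1.25).

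miR-15b had levels of -6.23 in adult hyperoxia and -5.74 in adult room air, against -4.52 in neonatal hyperoxia and -4.28 in neonatal room air. Both adult libraries were below both neonatal ones. The differences were -1.71 log2 in hyperoxia (3.28-fold lower in the adult) and -1.46 in room air (2.75-fold lower), again larger than the technical SD. The 95% interval of the fitted value was -2.53 to -0.65.

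miR-16 had levels of -0.63 in adult hyperoxia and -0.31 in adult room air, against 1.25 in neonatal hyperoxia and 0.86 in neonatal room air. It was among the earliest assays of every library, with 14 of 750 miRNA assays at a lower Ct in adult hyperoxia, 15 in adult room air, and 5 in each neonatal library. The adult libraries lay below the neonatal ones, with differences of -1.88 log2 in hyperoxia and -1.17 in room air that were larger than the technical SD. The fitted value of -1.52 ± 0.36 log2 missed the threshold (limma, adjusted p = 0.0567; 0.0372 to 0.144 under the alternatives on which it stayed below 0, except 0.720 with each card centred on its median). With a filter at Ct 32 (limma, adjusted p = 0.0399), without row L (0.0477) and with limma-trend (0.0372) it passed.

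**Figure D1:**
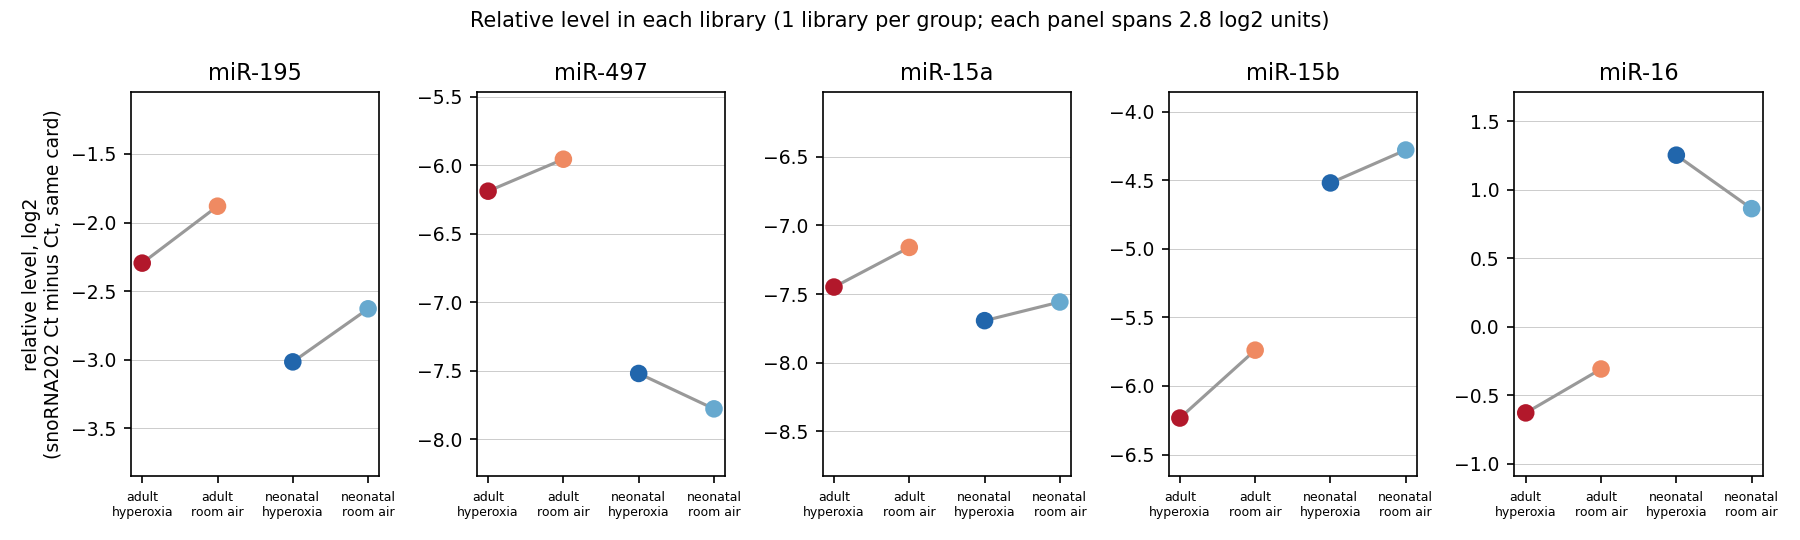
Relative level (vertical axis, log2, snoRNA202 Ct minus Ct on the same card) of each member in the 4 libraries, 1 point per library; grey lines join hyperoxia and room air of one age, and every panel spans the same range. Adult points lie above neonatal points for miR-195, miR-497 and miR-15a, and below them for miR-15b and miR-16.

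At 2-fold on the snoRNA202 scale, counted without a test, the same members were counted in both atmospheres. In room air 1 of 5 was at least 2-fold higher in the adult (miR-497; 16.6% of all 435 assays compared) and 2 of 5 at least 2-fold lower (miR-15b and miR-16; 43% of all assays). In hyperoxia the counts were again 1 higher (10.9% of 450 assays) and 2 lower (49.3%). All assays had a median of -0.98 log2 in hyperoxia and -0.57 in room air. The 2 lower members of 5 are near the share of all assays. With other references the counts changed in both atmospheres, to 3 higher and 0 lower with the card median. With U6 they were 5 higher and 0 lower.

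The zero point of these values depends on the reference RNA, and among the 6 scalings used so does the direction of miR-15b and miR-16. The median age effect of all assays was -0.84 log2 against own-card snoRNA202, -0.88 with the deposited values, -0.41 with snoRNA135 and snoRNA202, 0.30 with each library centred on its mean, 0.38 with each card centred on its median and 1.19 with U6. For the members the deposited values equal those against own-card snoRNA202, so these 2 scalings share their age effects. miR-497 (1.57 to 4.39 log2), miR-195 (0.73 to 3.55) and miR-15a (0.32 to 3.13) were above 0 under all 6 scalings and were called higher under 5, 4 and 2 of them (limma). miR-497 lost its call with the deposited values (limma, adjusted p = 0.0516) and, on the snoRNA202 scale, with no filter on late wells (0.119). miR-15b was below 0 under 5 scalings. It was called lower under 2 of them, the own-card and the deposited snoRNA202 values, which are equal for it. It was not called with snoRNA135 and snoRNA202 (limma, adjusted p = 0.0601), the library mean (0.1535) or the card median (0.5896). With U6 it lay at 1.23 and was called higher (limma, adjusted p = 0.0372). On the snoRNA202 scale the call of miR-15b as lower was also lost with no filter on late wells (limma, adjusted p = 0.106). miR-16 was below 0 under the same 5 scalings, called under none of them, and at 1.29 with U6 (limma, adjusted p = 0.0377). Neither control was steady between cards. Against snoRNA202 in room air, the U6 adult-minus-neonatal difference was -2.65 log2 on the first card, where all members sit, and -1.12 on the second. The controls Y1 and U87 were not used as references. On the first card Y1 was higher in the adult by 1.35 log2 in room air and 0.97 in hyperoxia. Those values exceed the differences of miR-195 and miR-15a, but not those of miR-497. U87 was at 0.43 in room air and -0.70 in hyperoxia. The Ct of snoRNA202 on the second card exceeded that on the first by 0.93 in adult hyperoxia and 0.225 in adult room air, against 1.08 in neonatal hyperoxia and 1.25 in neonatal room air.

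**Figure D2:**
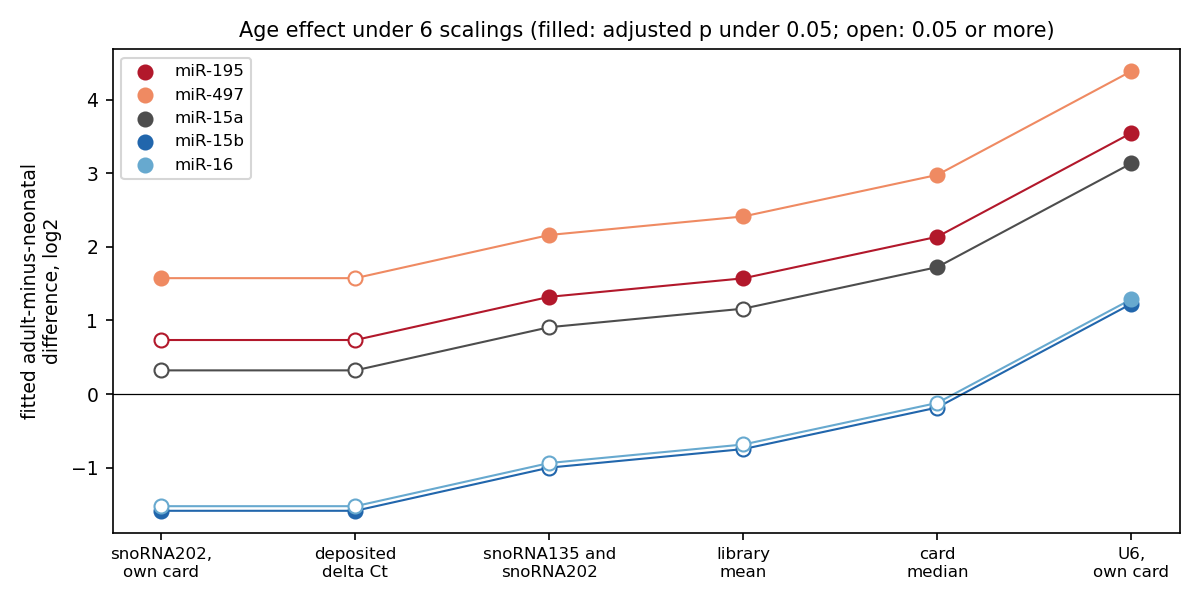
Fitted adult-minus-neonatal difference (vertical axis, log2) of each member under 6 choices of reference (horizontal axis); filled points have a Benjamini-Hochberg adjusted p under 0.05, open points 0.05 or more. The lines keep their distance from each other while the zero point moves, and miR-15b and miR-16 change sign with U6, to 1.23 and 1.29.

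Differences between members are free of the reference, because all 5 wells are on the first card and the reference cancels within a library. Each of the 10 pairs was tested by subtracting one member from every assay and refitting limma over the remaining 425 assays, with adjustment over all of them. For the change with age 7 of 10 pairs differed (limma, adjusted p under 0.05). This is not particular to the family: 77.2% of all assays differed in age effect from miR-497, 44.2% from miR-15a, 52.9% from miR-15b and 54.6% from miR-16. Subtracting a member puts its own error into every assay of that fit, and the fits against miR-16 had 8.94 prior degrees of freedom, against 1.52 to 1.77 in the others. With the order of each pair reversed, an alternative chosen after the data were seen, the same 7 pairs were called.

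miR-195 and miR-497 parted from miR-15b and miR-16. miR-497 exceeded miR-15b by 3.16 ± 0.22 log2 in its change with age (limma, adjusted p = 0.0210; 0.00741 to 0.0145 under 4 alternatives), an 8.94-fold shift of one against the other. The shift was 3.04 log2 between the hyperoxia libraries and 3.28 between the room air libraries. miR-195 exceeded miR-15b by 2.32 ± 0.22 (limma, adjusted p = 0.0212; 0.00807 to 0.0145), with 2.43 in hyperoxia and 2.21 in room air. Against miR-16 the differences were 3.10 ± 0.46 for miR-497 (limma, adjusted p = 0.000429; at most 0.00749 under the alternatives) and 2.26 ± 0.48 for miR-195 (limma, adjusted p = 0.00296; at most 0.0261). Each of these differences had the same sign and was over 1.9 log2 in both atmospheres.

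Because the miR-16 assay reads both of its hairpins, miR-195 with miR-497 was the only pair that compares products of a single locus. miR-195 differed from its neighbour miR-497 by -0.84 ± 0.28 log2 in its change with age, which missed the threshold (limma, adjusted p = 0.0779; 95% interval -1.78 to 0.10) except with limma-trend (0.0350). miR-15b and miR-16 differed by -0.06 ± 0.47 log2 in their change with age (limma, adjusted p = 0.927), with a 95% interval of -1.11 to 0.98 that allows a shift of up to about 1 log2 unit either way. miR-15a exceeded miR-16, read from both loci together, by 1.85 ± 0.47 (limma, adjusted p = 0.00811), with 2.12 in hyperoxia and 1.57 in room air, although this call was lost with a Ct filter of 32 (0.0717).

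Across loci, the close relatives miR-15b and miR-15a differed by -1.91 ± 0.23 log2 (limma, adjusted p = 0.0240; 0.00732 to 0.0232 under 4 alternatives), with -1.96 in hyperoxia and -1.86 in room air. miR-195 minus miR-15a was 0.41 ± 0.23 (limma, adjusted p = 0.250; 95% interval -0.38 to 1.20). miR-497 exceeded miR-15a by 1.25 ± 0.25 (limma, adjusted p = 0.0467; 0.0210 to 0.0497 under the alternatives). The order of the fitted age effects was therefore miR-497, miR-195, miR-15a, miR-16, miR-15b, in which neighbours other than miR-15a and miR-16 did not differ beyond the fit's threshold.

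**Figure D3:**
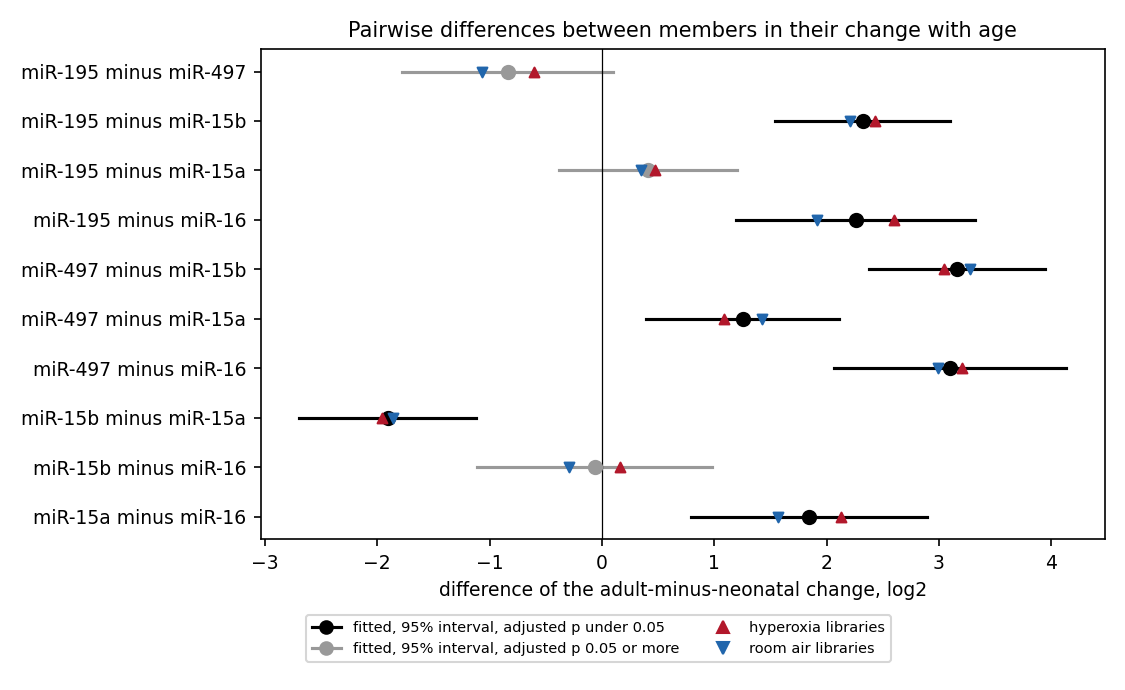
Difference between members in their adult-minus-neonatal change (horizontal axis, log2) for the 10 pairs; circles are fitted values with 95% intervals, black where the adjusted p was under 0.05, and triangles are the hyperoxia and the room air libraries alone. The 3 grey pairs are miR-195 with miR-497, miR-195 with miR-15a and miR-15b with miR-16, and miR-497 minus miR-15b is the largest at 3.16.

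After hyperoxia the members differed from their room air levels by less than 2-fold. Of the 5 members, 0 were 2-fold higher or lower in the neonatal pair (13.6% of 469 assays were higher and 8.53% lower) or in the adult pair (3.79% of 448 higher and 8.26% lower). In the neonatal pair miR-16 was at 0.39 log2 and miR-497 at 0.26, while miR-15a was at -0.14, miR-15b at -0.24 and miR-195 at -0.39. In the adult pair all 5 were below 0, at -0.23 for miR-497, -0.29 for miR-15a, -0.32 for miR-16, -0.42 for miR-195 and -0.50 for miR-15b. In neonates miR-16, miR-195 and, barely, miR-497 exceeded the technical SD of 0.26. In adults miR-195 and miR-15b exceeded the SD of 0.33. The other differences were smaller than the SD. The median of all assays in the adult pair was also below 0, at -0.24, and that of the neonatal pair was 0.13.

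No member was called for oxygen, and neither was any other assay (0%; limma, Benjamini-Hochberg, 0 of 426, with 13 at an unadjusted p under 0.05 and none of those a member). The fitted oxygen effects were -0.40 ± 0.30 log2 for miR-195, -0.37 ± 0.30 for miR-15b, -0.21 ± 0.30 for miR-15a, 0.01 ± 0.33 for miR-497 and 0.04 ± 0.36 for miR-16. Their 95% intervals reached from -1.32 to 1.14. Each interval held a 2-fold change in at least 1 direction, so that a 2-fold change in that direction was not excluded. Of the 10 pairs 0 differed in oxygen effect (limma, lowest adjusted p = 0.557; 0 at an unadjusted p under 0.05).

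The passenger strands (marked *, the arm of a hairpin that is usually discarded) give a second reading of the hairpins, on the other card. Assays existed for miR-15a*, miR-15b* and miR-16*, and the sequences of miR-15a* and miR-15b* are shown because they do not carry the guides' seed. The RefSeq forms with bases 2 to 8 in capitals are:
miR-15a*: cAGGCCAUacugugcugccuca
miR-15b*: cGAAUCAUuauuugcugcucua
miR-15b* had levels of -9.68 in adult hyperoxia and -9.14 in adult room air, against -8.17 in neonatal hyperoxia and -8.07 in neonatal room air. It lay lower in both adult libraries, as miR-15b did, with a fitted -1.29 ± 0.32 log2 (limma, adjusted p = 0.0614). miR-16*, whose assay label does not say which hairpin it reads, was at -12.34 in adult hyperoxia and -12.01 in adult room air, against -11.29 in neonatal hyperoxia and -10.73 in neonatal room air (fitted -1.16 ± 0.30; limma, adjusted p = 0.0662). miR-15a* was at -12.17 in adult hyperoxia and -11.45 in adult room air, against -10.19 in neonatal hyperoxia and -10.85 in neonatal room air. Its fitted -1.29 ± 0.49 (limma, adjusted p = 0.132) is opposite in sign to the 0.32 of its guide strand miR-15a. All 3 passenger strands were below 0 under 5 of the 6 scalings and called under none (limma). They turned above 0 only with each library centred on its mean, which is taken over both cards. There miR-15a* and miR-15b* were both at 0.14 and miR-16* at 0.26. Guides and passengers sit on different cards, so these differences also hold the offset between cards.

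The related miR-322, miR-503, miR-103 and miR-107 carry the seed itself or a near form of it, and are shown for that comparison. The RefSeq sequences have the seed in capitals:
miR-322: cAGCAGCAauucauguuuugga
miR-503: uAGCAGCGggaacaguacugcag
miR-103: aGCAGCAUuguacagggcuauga
miR-107: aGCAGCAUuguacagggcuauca
miR-322 has the members' seed and miR-503 a similar one, while miR-103 and miR-107 share a seed of their own. miR-503 and miR-322, neighbours on the X chromosome, both fell with age: miR-503 fell by 5.18 ± 0.30 log2 (limma, adjusted p = 0.00725) and miR-322 fell by 2.29 ± 0.30 (limma, adjusted p = 0.0206). miR-503 was called lower under all 6 scalings, and miR-322 under 4, with 0.52 under U6; miR-322 also lost its call with no filter on late wells (limma, adjusted p = 0.0689). miR-103 and miR-107, which are known for roles in lipid and insulin metabolism, lay at 0.47 ± 0.30 (limma, adjusted p = 0.296) and -1.49 ± 0.44 (adjusted p = 0.0832). Under the scalings miR-103 was above 0 in all 6 and called higher in 2, with the card median and with U6. miR-107 was below 0 in 5 and called in none. Of the 6 assays with the members' seed, 1 rose and 2 fell on the snoRNA202 scale, beside 5.63% and 30% of all assays.

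**Figure D4:**
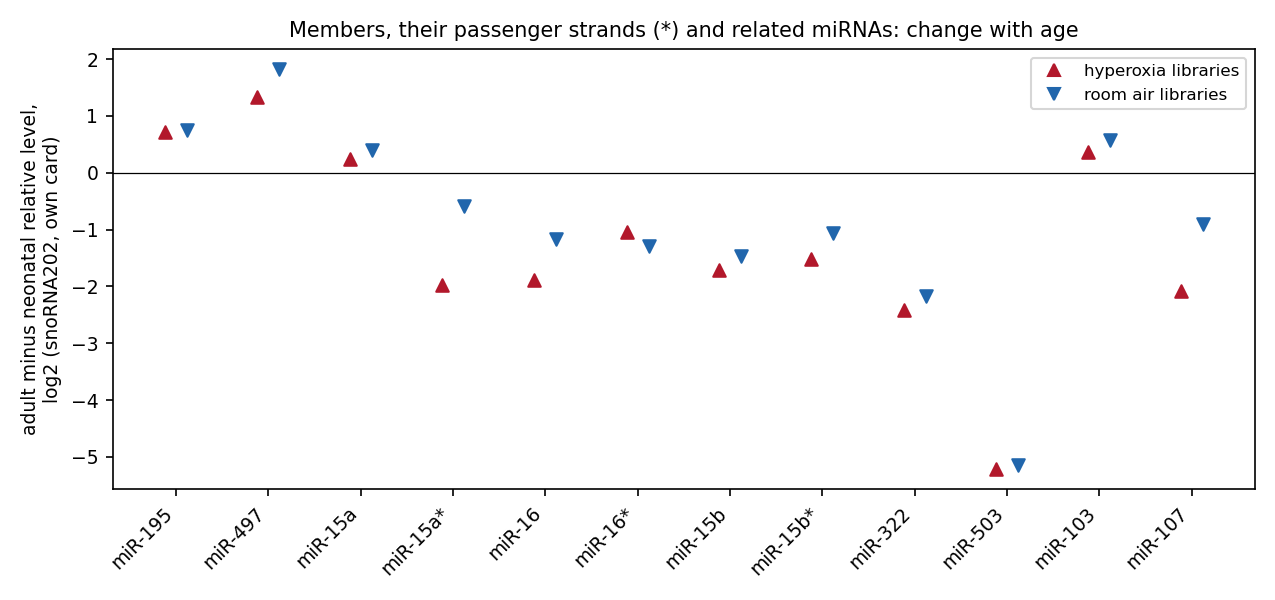
Adult-minus-neonatal difference (vertical axis, log2, own-card snoRNA202) of the members, their passenger strands and related miRNAs, with hyperoxia libraries as upward and room air libraries as downward triangles. miR-195, miR-497, miR-15a and miR-103 lie above 0, and miR-503 lies lowest, at -5.22 in hyperoxia and -5.15 in room air.

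Other miRNAs with known roles in cell division were read from lists. Of 17 fitted members of other brake families (let-7, miR-34, miR-449 and miR-26, which repress growth and cell cycle genes), 0 rose and 2 fell with age (limma), with a median of 0.16 log2. miR-449a, of multiciliated cells, fell by 3.39, and miR-98, a let-7 relative, lay at -2.05 (limma, adjusted p = 0.0793). Of 12 fitted members of miR-17 and its related clusters, known promoters of proliferation, 0 rose and 1 fell (limma; miR-18a fell by 1.64), with a median of -1.24. The uncalled miR-363 lay at -2.32 (limma, adjusted p = 0.0717). The background for both lists is the 5.63% of assays that rose and 30% that fell, around the median of -0.84. For oxygen the most distant brakes were miR-34a at 0.65 and let-7e at -0.51, and of the miR-17 list miR-20a at -0.47 and miR-19b at -0.36, none of them called (limma, adjusted p = 0.988 each).

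Cell makeup was read from marker miRNAs, since in whole lung fewer cells of a type and less RNA per cell cannot be told apart. The background for these lists is again the 5.63% of all assays that rose and the 30% that fell with age, around the median of -0.84 log2. miR-16 and miR-15b are abundant in blood. The erythroid list of 3 had a median age effect of -0.91 log2, near that of all assays, with 0 calls: miR-144 at -0.98, miR-486 at -0.91 and miR-451 at 0.51. The Ct of these erythroid markers ran from 19.1 to 27.3 in adult hyperoxia and 19.3 to 26.8 in adult room air, against 19.0 to 27.3 in neonatal hyperoxia and 18.9 to 27.3 in neonatal room air. The smooth muscle list had a median of 0.76 with 0 of 2 called (miR-145 at 1.18, miR-143 at 0.34), and the endothelial list a median of 0.08 with 0 of 2 called, its strands lying on opposite sides of 0 (miR-126-5p at 0.57, miR-126-3p at -0.42). Leukocyte markers had a median of 0.64 with 0 of 4 called, led by miR-142-3p at 0.86 and miR-142-5p at 0.82. Epithelial markers had a median of -0.27 with 0 of 6 called (miR-429 at -1.57, miR-200c at -0.39). Of 4 mesenchymal markers miR-214 fell by 3.004, miR-199a-5p fell by 2.28 and miR-10b rose (median -1.71). Of 4 striated muscle markers miR-206 fell by 2.91 (median -0.42), with miR-133b at -0.45. For oxygen 0 markers were called (limma), and the value farthest from 0 was -0.80, for miR-206. All these markers were detected in all 4 libraries, and their part in the members' differences was not tested.

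By pattern over the 4 libraries, the closest members were miR-195 with miR-15a and miR-15b with miR-16. The measure is the Euclidean distance between the 4 log2 levels after each assay's own mean is taken off, here given as a description over 4 points. It was 0.46 between miR-195 and miR-15a, 0.47 between miR-15b and miR-16, 0.96 between miR-195 and miR-497, and 3.19 between miR-497 and miR-15b, the most distant. Among the 386 other assays that crossed by Ct 32 in every library, the nearest to miR-16 were miR-106a (0.10), miR-340-5p (0.15) and miR-20a* (0.15). The nearest to miR-15b were miR-805 (0.17), miR-149 (0.21) and miR-182 (0.22). Those to miR-15a were miR-879* (0.15), miR-328 (0.16) and the smooth muscle miRNA miR-143 (0.16). miR-195 was nearest to miR-2146 (0.26), the leukocyte miRNA miR-142-3p (0.27) and miR-27a (0.28), and miR-497 to miR-21 (0.30), miR-664 (0.31) and the assay annotated as miR-125 (0.32). Of these neighbours miR-20a*, miR-805, miR-149, miR-879*, miR-2146 and miR-664 are on the second card, so their distances also hold the offset between cards. All the distances to neighbours lie below the technical SD of adult minus neonatal lung (0.95 and 0.65), so which assay is nearest is uncertain.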

How the data were processed

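Small RNA was measured by TaqMan quantitative PCR after Megaplex reverse transcription and preamplification, per the labels' protocols, on 2 cards of 384 wells. The authors deposited Ct and delta Ct (Ct minus snoRNA202), both on a log2 scale, per the file headers. A well without crossing holds 40. The sources used here do not name the software, threshold or baseline. In adult room air the second card's deposited delta Ct uses the first card's snoRNA202. The deposited values of miR-322, on the first card, also depart from its own card's snoRNA202 (age effect -2.18 against -2.29 log2). Levels were therefore recomputed here against each card's own snoRNA202. For the members both are equal.

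Assays crossing by Ct 35 in every library were fitted (limma 3.58.1, R 4.3.3; lmFit, eBayes; age and oxygen as additive terms; 1 residual and 2.16 prior degrees of freedom; Benjamini-Hochberg, threshold 0.05). A difference of 1 log2 unit was counted as 2-fold. The fit was tried on simulated data with independent noise of 1 size for every assay. That setting lacks the errors of card and reference in these data, so it does not show how the fit behaves on them. Nothing says that libraries came from separate animals, so p-values cover only the spread among these 4 samples, possibly a technical one. Groups came from the titles. Alternatives were the reference, the Ct filter, row L and limma-trend. The members and lists were chosen with earlier results of these data known. Named were the members, assays of their hairpins, their relatives, the farthest 2 per list and the nearest 3 assays per member. List members were matched by miRBase name, and miR-375 and miR-126-3p by assay name. Sequences and coordinates are RefSeq's.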

Additional observations from a re-analysis of the deposited data

Results flagged for a closer look

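Of 12 miRNAs examined (the members, 3 passenger strands and 4 relatives), 4 had oxygen differences of opposite sign at the 2 ages, above 0 in neonates and below 0 in adults. With 1 library per group the difference between ages was not tested, and 52.1% of the 426 fitted assays also had opposite signs. For miR-16 the adult oxygen difference minus the neonatal one was -0.71 log2 (-0.32 and 0.39). For miR-497 it was -0.491 (-0.23 and 0.26). It was -1.39 for miR-15a* (-0.73 and 0.66) and -1.18 for miR-107 (-1.03 and 0.15). The median oxygen difference of all assays on the first card, which holds miR-16, miR-497 and miR-107, was -0.29 in adults and 0.24 in neonates.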

How the results depend on the processing

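No paired analysis was possible because each group has 1 library. Differences between members were refitted under 4 alternatives: the deposited values, a Ct filter of 32, limma-trend and the reversed order. None of these can change the difference itself, so only the call could move. Of 40 alternative values for age 38 kept their side of the threshold, and of 40 for oxygen all 40 did. The other references, which cancel within a pair, were not run for the pairs. The exceptions for age were miR-15a minus miR-16 with a Ct filter of 32 (1.85 log2, no longer called) and miR-195 minus miR-497 with limma-trend (-0.84, called). Age effects followed the reference. With the library mean, miR-15b was at -0.75 and lost its call, miR-195 was called at 1.57, miR-15a*, miR-15b* and miR-16* turned to 0.14, 0.14 and 0.26, and the oxygen effect of miR-15a turned to 0.0375. With the card median, miR-15b was at -0.18 and miR-322 at -0.89 without a call, and miR-15a (1.72), miR-195 (2.14) and miR-103 (1.87) were called. With U6, miR-15b (1.23), miR-16 (1.29), miR-322 (0.52) and miR-107 (1.32) turned above 0. There miR-15a (3.13), miR-195 (3.55) and miR-103 (3.28) were called, and the oxygen effect of miR-15a* turned to 0.24. With snoRNA135 and snoRNA202, miR-15b (-0.9998) lost its call and miR-195 (1.32) gained one. With the deposited values miR-497 (1.57) lost its call and the oxygen effect of miR-15a* turned to 0.079. With a Ct filter of 32, without row L and with limma-trend, miR-16 (-1.52) was called; at Ct 32 so were miR-15b* (-1.29) and miR-16* (-1.16), and with limma-trend miR-15b* (-1.29). With no Ct filter, miR-15b (-1.59), miR-497 (1.57) and miR-322 (-2.29) lost their calls.

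The assays that rose and fell with age numbered 24 and 128, and 99 and 77 with the library mean, 136 and 84 with the card median, 196 and 71 with U6, 50 and 112 with both small nucleolar RNAs, 6 and 72 with no Ct filter, and 38 and 161 with limma-trend. Members 2-fold higher and lower in the adult than in the neonatal hyperoxia library were 1 and 2. They became 3 and 0 with the library mean and the card median, 5 and 0 with U6, and 2 and 1 with both small nucleolar RNAs. In the adult against the neonatal room air library these counts were also 1 and 2. They became 2 and 1 with the library mean, 3 and 0 with the card median, 5 and 0 with U6 and 2 and 1 with both small nucleolar RNAs. The cause was not tested; the choice of reference shifts all members together by construction. All members crossed before Ct 22, yet the calls of miR-15b and miR-497 were lost with no Ct filter. That setting changes the assays over which the fit and the adjustment run.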
